A study of Mus musculus with 18 samples.

Results

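The genes described here are the CDK inhibitors, the D cyclins and Rb1 in TC1, a line of mouse tumour cells labelled as fibrosarcoma. They are 10 genes taken by symbol, Ccnd1, Ccnd2, Ccnd3, Cdkn1a, Cdkn1b, Cdkn2a, Cdkn2b, Cdkn2c, Cdkn2d and Rb1, out of 29538 genes in the expression tables. All 10 were listed in each of those tables and passed the filter on low values in each. The cells carried a guide RNA against Nat10 (sgNAT10), a guide RNA against Myc (sgMyc), or were unedited (wild type, WT). Messenger RNA was sequenced from 2 sgNAT10 and 2 WT libraries in one set and from 3 sgMyc and 3 WT libraries in another, each set with its own WT. Ribosome-protected fragments (footprints, Ribo-seq) came from 2 sgNAT10 and 2 WT libraries, and acetylated RNA (acRIP-seq) from 1 precipitate and 1 input library of sgNAT10 and of WT. No library carried a control guide, the labels do not say whether an edited line was a single clone, and nothing states that replicates came from separate cultures, so p-values measure only the spread between these libraries.

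D cyclins bind CDK4 and CDK6, and the active kinases phosphorylate the retinoblastoma protein, which then releases E2F factors that drive genes of S phase. The INK4 inhibitors, encoded by Cdkn2a to Cdkn2d, block CDK4 and CDK6, while the CIP/KIP inhibitors, here Cdkn1a and Cdkn1b, bind cyclin and kinase together and hold back CDK2. NAT10 is the enzyme that acetylates cytidines in RNA, and MYC is a transcription factor known to act on D cyclins and on several of these inhibitors.

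Levels are given as FPKM, fragments scaled to gene length and library depth, which allows comparison between genes within a table. The tables were normalised separately, so levels were not compared between them apart from the ratio of footprints to mRNA. Models that joined tables compared changes against WT. Library sizes were 12986382 and 12305673 reads in sgNAT10 and 16085302 and 13429670 in WT for mRNA, as recovered from the FPKM values, and 1540644 to 3189383 for footprints. The sgMyc set was deeper, at 57363229 to 65768024 counts in sgMyc and 51875052 to 55900895 in WT. Myc mRNA had 39.98 and 40.9 FPKM in sgNAT10 libraries, against 115 and 117 FPKM in WT libraries, and Nat10 had 3.59 and 3.95 FPKM in sgNAT10, against 5.36 and 5.30 FPKM in WT. In the sgMyc set, Myc had 21.1, 20.9 and 34.1 FPKM in sgMyc libraries, against 64.8, 61.6 and 70.8 FPKM in WT libraries.

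The third sgMyc library stood apart from the other 2. Between replicates 1 and 2 of sgMyc, 415 genes differed more than 2-fold, while replicate 3 differed that much from replicates 1 and 2 in 2322 and 2267 genes. Values per gene, tests and counts of calls that rest on the sgMyc set are therefore given with and without it. In the sgNAT10 mRNA set the replicates differed by little more than counting noise. There, 1.59% of genes in the sgNAT10 pair and 0.836% in the WT pair passed a chi-square limit that counting noise alone passes in 0.1%, against 22.2% and 34.3% for the footprint pairs. Markers of epithelium, T cells and endothelium summed to at most 0.862 FPKM per list in any mRNA library of either set. Of 8 mesenchymal markers, 7 passed the filter in sgNAT10 mRNA, and their list summed to 587 to 617 FPKM in sgNAT10, against 307 to 317 FPKM in WT, and to 1143 to 1992 FPKM in sgMyc, against 1429.8 to 1492 FPKM in its WT. Macrophage markers, 3 of 4 listed, summed to 12.2 to 13.7 FPKM in sgNAT10, against 5.49 to 5.996 FPKM in WT, and to 15.9 to 29.3 FPKM in sgMyc, against 10.9 to 12.3 FPKM in its WT. In limma, 4 of the 7 mesenchymal genes tested were higher and 2 lower in sgNAT10, with Thy1 at a log2 fold change of 4.29, Col1a2 at 1.61 and Fn1 at 1.53, and Cd14 was the 1 macrophage gene called (1.71). In edgeR, Pdgfrb (2.66) and Thy1 (1.86) were higher and Vim (-0.35) lower in sgMyc, and Cd14 was higher (adjusted p = 0.0103). Without sgMyc replicate 3 these were 3.13, 1.68 and -0.26, and Cd14 was at 1.43. The part of these markers in the results was not tested, and in bulk RNA fewer cells of a type and less RNA per cell cannot be told apart.

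The genome around 2 of the inhibitors is shown. Cdkn1a was chosen for its fall in sgNAT10 mRNA, the largest of the 10 genes. Cdkn2a was chosen because the place of its acetylated RNA peak depends on which of its starts is meant. The windows are the 250 bases before a transcript start in RefSeq annotation of GRCm38.p6, the assembly also named mm10, written in the direction of transcription. Capitals mark matches, on either strand, to a p53-type element (a pair of CATG a fixed distance apart), to TTTNGCGC, an E2F-like core, or to the E-box CACGTG, to which MYC binds. The Cdkn1a window lies on the plus strand at chr17:29090729-29090978 before the upstream one of 2 annotated starts, which are 2790 bases apart. The Cdkn2a windows lie on the minus strand at chr4:89294620-89294869, before the distal start of the p19Arf transcript, and at chr4:89282193-89282442, before the start of the p16Ink4a transcript 12427 bases downstream.
Cdkn1a: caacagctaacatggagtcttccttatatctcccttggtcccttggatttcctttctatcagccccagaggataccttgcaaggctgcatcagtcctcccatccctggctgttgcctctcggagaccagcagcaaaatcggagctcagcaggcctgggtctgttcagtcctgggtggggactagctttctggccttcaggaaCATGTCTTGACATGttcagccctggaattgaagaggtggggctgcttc
Cdkn2a distal: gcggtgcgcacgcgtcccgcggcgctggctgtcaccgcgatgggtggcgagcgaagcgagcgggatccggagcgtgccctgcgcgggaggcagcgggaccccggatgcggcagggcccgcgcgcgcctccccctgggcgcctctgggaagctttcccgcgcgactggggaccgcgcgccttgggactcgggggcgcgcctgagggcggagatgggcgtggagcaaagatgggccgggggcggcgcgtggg
Cdkn2a proximal: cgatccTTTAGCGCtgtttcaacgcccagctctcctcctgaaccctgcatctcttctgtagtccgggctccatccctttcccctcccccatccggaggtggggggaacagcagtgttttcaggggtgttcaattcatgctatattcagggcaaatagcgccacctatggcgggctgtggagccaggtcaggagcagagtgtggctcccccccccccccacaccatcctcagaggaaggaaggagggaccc

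The p53-type pair began 48 bases before the upstream Cdkn1a start and is found in 0.490% of 32851 RefSeq windows of the same length. The window before the downstream Cdkn1a start, not printed, holds no match to any of these elements. The proximal Cdkn2a window holds an E2F-like core, found in 1.13% of windows. No CACGTG, found in 6.02% of windows, lies in any of the 11 windows available for 7 of the 10 genes. Ccnd1, Ccnd2 and Rb1 had no window available and were not searched. A match, or the lack of one, describes only the letters of these windows.

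In WT cells of the sgNAT10 set, the most abundant mRNAs of the 10 were Ccnd1 at 133 ± 0.158 FPKM, Cdkn1a at 123 ± 4.14 FPKM and Cdkn2a at 106 ± 1.33 FPKM (mean ± SD, n = 2). Ccnd2 followed at 53.3 ± 1.01 FPKM, then Cdkn2b at 12.5 ± 0.265 FPKM and Ccnd3 at 11.7 ± 0.360 FPKM. Cdkn1b at 9.26 ± 0.296 FPKM and Cdkn2d at 8.74 ± 0.798 FPKM overlapped between libraries, and Cdkn2c at 6.03 ± 0.411 FPKM and Rb1 at 3.03 ± 0.113 FPKM were the lowest.

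With the Nat10 guide, the D cyclins moved apart at the mRNA level: Ccnd1 was higher, Ccnd2 and Ccnd3 lower. Cdkn1a fell to 0.412 of its WT mean, Cdkn2c and Cdkn2d rose, and Cdkn2a and Rb1 fell by smaller amounts. In limma on log2(FPKM + 1), with p-values adjusted over 11735 genes, 3 of the 10 were called higher and 5 lower at adjusted p under 0.05. Of all genes tested, 33.7% were higher and 29.6% lower, so having many of the 10 among the calls is near the background, and the result lies in which gene moved which way and how far. The genotypes did not overlap in FPKM for 9 of the 10, against 82.3% of all genes.

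Ccnd1, the D cyclin that growth factor signals induce, had 175 and 176 FPKM of mRNA in sgNAT10 libraries, against 133 and 133 FPKM in WT libraries. Both sgNAT10 libraries lay above both WT libraries (log2 fold change 0.40, SE 0.0254, adjusted p = 1.62e-04 in limma). Ccnd2, a D cyclin known as a direct target of MYC, had 33.2 and 33.5 FPKM in sgNAT10, against 52.6 and 54.1 FPKM in WT. The sgNAT10 libraries were the lower pair, without overlap (log2 fold change -0.66, SE 0.0309, adjusted p = 6.49e-05). Ccnd3, the D cyclin best known from lymphocytes, had 9.58 and 10.1 FPKM in sgNAT10, against 11.5 and 11.99 FPKM in WT, again without overlap (log2 fold change -0.24, adjusted p = 0.00777). Among the 3 D cyclins, Ccnd1 made up 80.3% and 80.2% of their summed FPKM in sgNAT10, against 67.5% and 66.8% in WT, and Ccnd2 15.3% and 15.2%, against 26.7% and 27.1%. The sum itself was 217 and 219.8 FPKM in sgNAT10, against 197 and 199 FPKM in WT.

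Cdkn1a, which encodes p21, the CIP/KIP inhibitor through which p53 halts the cycle, had 50.6 and 51.1 FPKM of mRNA in sgNAT10, against 120.5 and 126 FPKM in WT. The gap between the genotypes was many times the gap within either (log2 fold change -1.26, SE 0.0341, adjusted p = 1.71e-05 in limma). Cdkn1b, which encodes p27, had 8.85 and 9.23 FPKM in sgNAT10, against 9.05 and 9.47 FPKM in WT. These overlapped, and Cdkn1b was not called (log2 fold change -0.03, SE 0.0464, adjusted p = 0.577).

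Cdkn2a yields p16INK4a, an inhibitor of CDK4 and CDK6, and p19ARF, which stabilises p53, from separate first exons. The tables give 1 value for both, so these products cannot be told apart here. Cdkn2a had 94.4 and 98.4 FPKM in sgNAT10, against 105 and 107 FPKM in WT. The sgNAT10 libraries were lower without overlap, by a small step that passed the test (log2 fold change -0.13, SE 0.0325, adjusted p = 0.0172) and lost it without either WT library or without sgNAT10 replicate 1 (adjusted p from 0.0504 to 0.0881). Cdkn2b, which encodes p15INK4b beside Cdkn2a on chromosome 4, had 13.6 and 13.4 FPKM in sgNAT10, against 12.6 and 12.3 FPKM in WT, and was not called (log2 fold change 0.11, adjusted p = 0.0565).

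Cdkn2c, which encodes p18INK4c, had 10.4 and 11.1 FPKM in sgNAT10, against 5.74 and 6.32 FPKM in WT. Every sgNAT10 library exceeded every WT library (log2 fold change 0.74, SE 0.0601, adjusted p = 3.50e-04 in limma). Cdkn2d, which encodes p19INK4d, had 15.8 and 16.4 FPKM in sgNAT10, against 8.18 and 9.31 FPKM in WT, a separation of the same kind (log2 fold change 0.81, SE 0.0659, adjusted p = 3.46e-04). The summed FPKM of the 4 INK4 genes was 134 and 139 in sgNAT10, against 131 and 135 in WT. Cdkn2a made up 70.3% and 70.6% of it in sgNAT10, against 79.8% and 79.3% in WT. Rb1, the pocket protein that D cyclin kinases phosphorylate, had 2.20 and 2.42 FPKM in sgNAT10, against 3.11 and 2.95 FPKM in WT. It was lower without overlap (log2 fold change -0.28, SE 0.0678, adjusted p = 0.0158), on a scale that understates low genes, and the call was lost without either WT library or without sgNAT10 replicate 1 (adjusted p from 0.0525 to 0.0886).

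**Figure D1:**
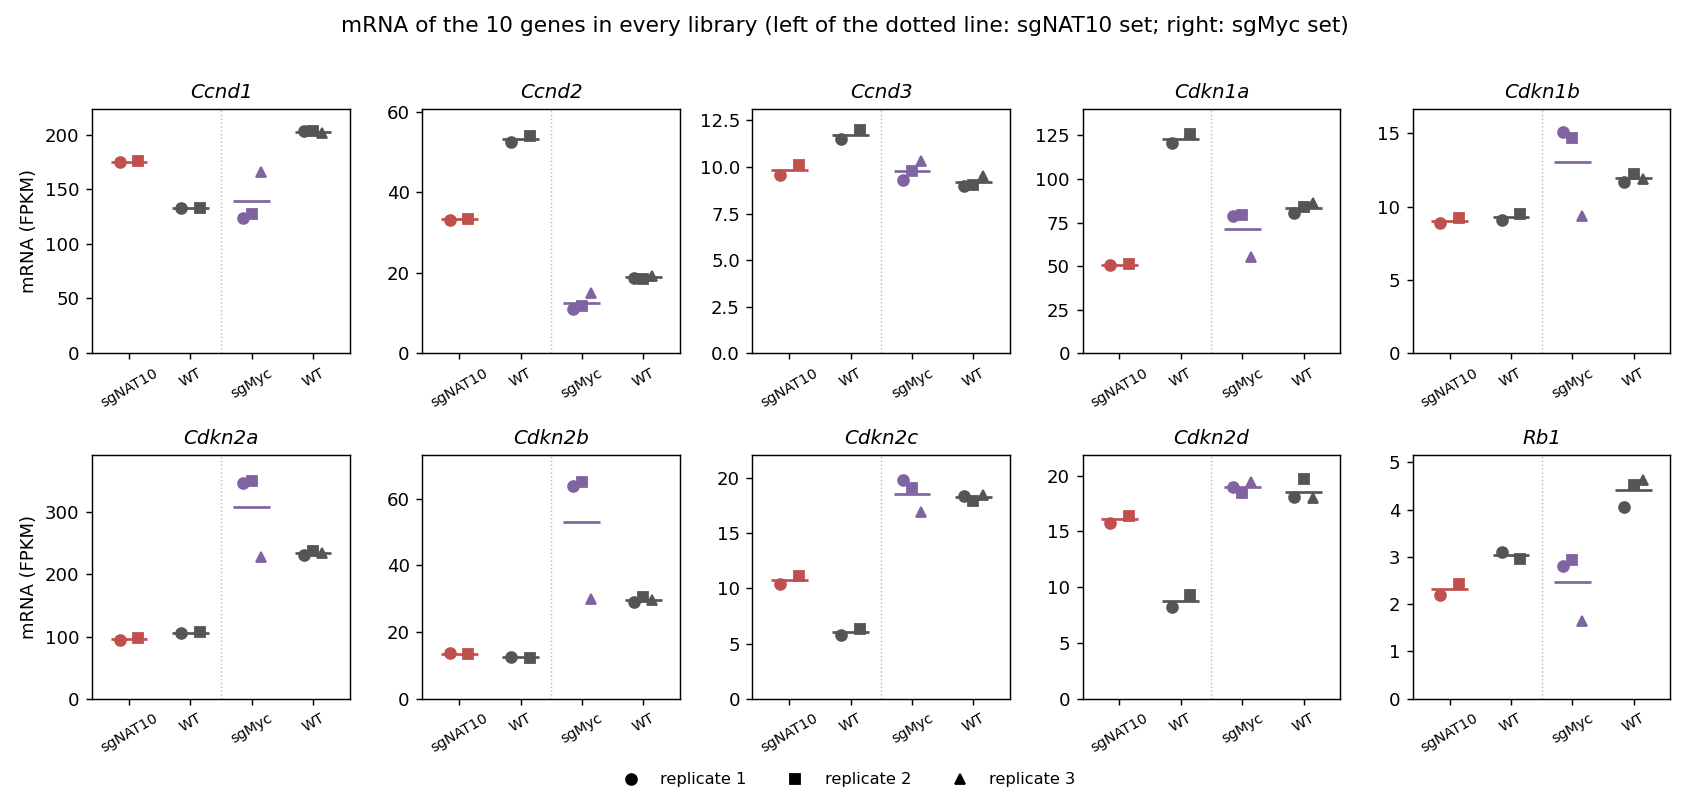
mRNA level (FPKM, linear axes from 0) of each of the 10 genes in every library, with sgNAT10 and its WT left of the dotted line and sgMyc and its WT right of it. Points are libraries and horizontal lines group means. Cdkn1a sits at 50.6 and 51.1 FPKM in sgNAT10 below its WT, and the third sgMyc library leaves the other 2 in Cdkn2a and Cdkn2b.

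Ribosome footprints of the 10 genes were measured in the same line and genotypes, with fewer reads and a larger spread. Of the 10 genes, Cdkn2d was called higher and Cdkn1a lower in sgNAT10 (limma, adjusted over 9707 genes). The backgrounds were 1.81% of genes higher and 1.28% lower. The genotypes did not overlap for 5 of the 10, against 51.1% of all genes.

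Ccnd1 footprints stood at 150.4 and 152 FPKM in sgNAT10, against 101 and 106 FPKM in WT. Both sgNAT10 libraries were above both WT libraries, but limma did not call the difference (log2 fold change 0.54, SE 0.133, adjusted p = 0.101). It was called by edgeR on whole reads recovered from the FPKM values (log2 fold change 0.54, adjusted p = 0.0175), which called 755 of 9855 genes. In the authors' deposited table Ccnd1 footprints had a log2 fold change of 0.54 with an adjusted p of 1.59e-05. The authors' values were -0.48 for Ccnd2 (adjusted p of 0.0641) and 0.56 for Ccnd3 (adjusted p of 0.382). Ccnd2 had 15.7 and 19.4 footprint FPKM in sgNAT10, against 22.3 and 26.6 FPKM in WT, lower without overlap and not called (log2 fold change -0.45, adjusted p = 0.347). For Ccnd3 the footprints were 4.56 and 5.28 FPKM in sgNAT10, against 3.25 and 3.42 FPKM in WT, higher without overlap and not called (log2 fold change 0.45, SE 0.352, adjusted p = 0.529). Ccnd1 made up 88.1% and 86.0% of the summed D cyclin footprint FPKM in sgNAT10, against 79.9% and 78.0% in WT, in the same direction as in mRNA.

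Footprints of Cdkn1a had 22.9 and 32.1 FPKM in sgNAT10, against 71.3 and 70.6 FPKM in WT. The sgNAT10 libraries were far below WT (log2 fold change -1.36, SE 0.217, adjusted p = 0.0337 in limma), a fall close in size to that of the mRNA. Cdkn2d footprints had 27.05 and 21.7 FPKM in sgNAT10, against 2.22 and 6.002 FPKM in WT, the widest separation of the 10 genes (log2 fold change 2.41, SE 0.428, adjusted p = 0.0465). Those values rest on 152 and 59 recovered reads in sgNAT10, against 11 and 29 reads in WT. Both calls were lost without any 1 of the 4 libraries, with a log2 fold change between -1.59 and -1.12 for Cdkn1a and between 1.85 and 2.97 for Cdkn2d.

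Cdkn2a had the most footprints of the inhibitors, at 370.4 and 406 FPKM in sgNAT10, against 459 and 359 FPKM in WT, and the genotypes overlapped (log2 fold change -0.07, adjusted p = 0.845). Cdkn1b, Cdkn2b, Cdkn2c and Rb1 also overlapped between genotypes, with log2 fold changes from -0.10 to 0.56 and adjusted p-values from 0.456 to 0.938. Their footprints counted 18 to 156 recovered reads per library, and the SE of their log2 fold changes lay between 0.359 and 0.541.

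**Figure D2:**
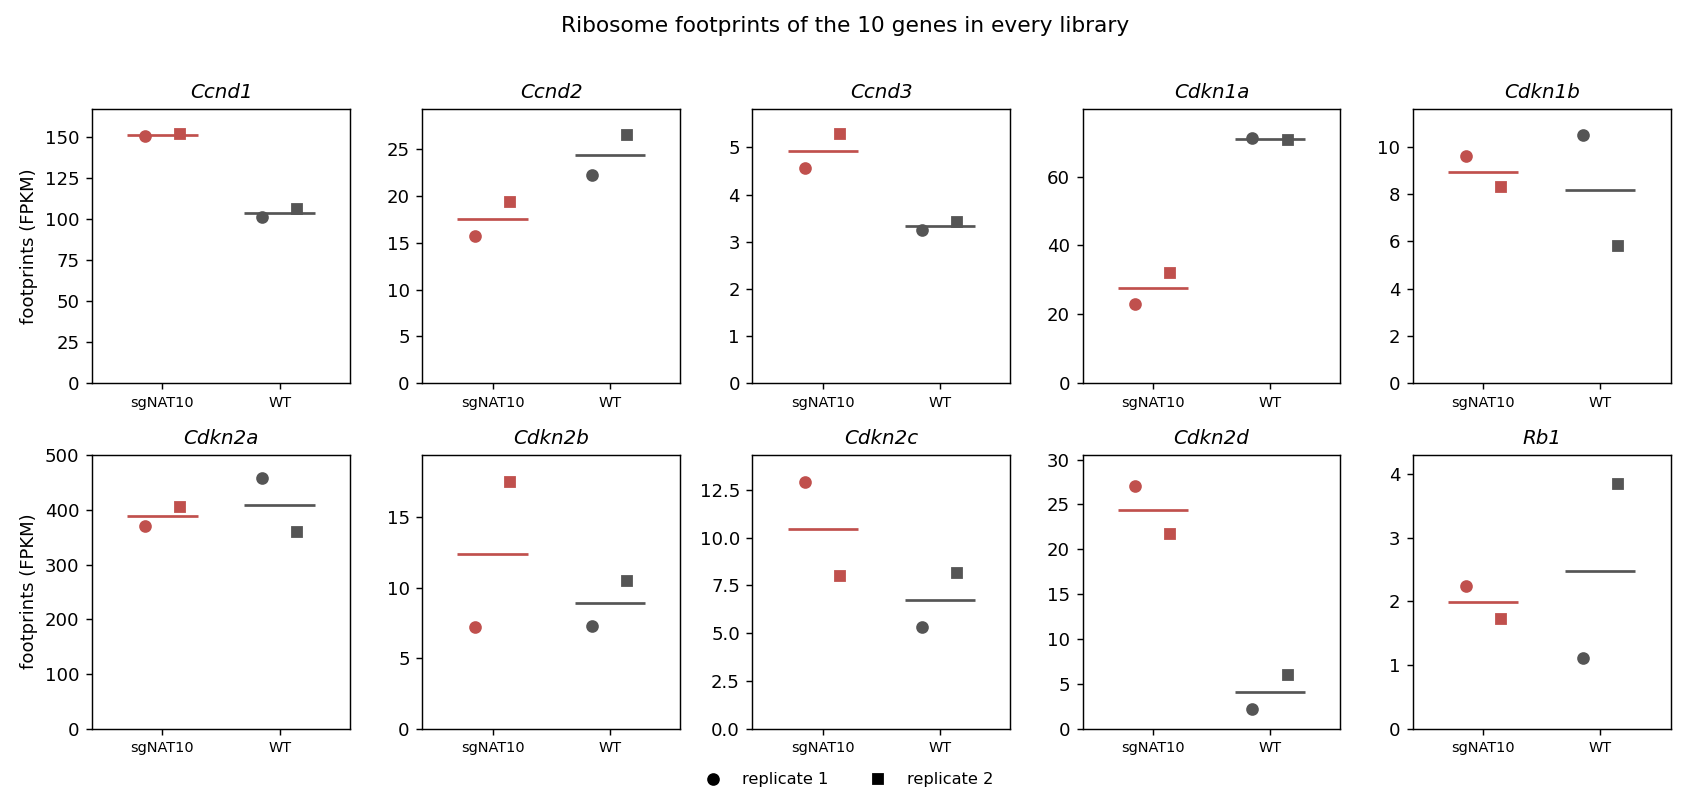
Ribosome footprint level (FPKM, linear axes from 0) of each gene in the 2 sgNAT10 and the 2 WT libraries. Points are libraries and lines group means. Cdkn1a is lower and Cdkn2d higher in sgNAT10 without overlap, and libraries of 1 genotype differ widely for Rb1 and Cdkn2b.

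The ratio of footprint FPKM to mRNA FPKM was taken per library, dividing by the mRNA library of the same genotype and number, which are not stated to be the same culture. Gene lengths behind the FPKM values are not given, and footprints cover the coding part alone, so the ratio of a gene ranks it only roughly among others. Cdkn2a had the highest ratio of the 10, at 3.92 and 4.13 in sgNAT10, against 4.38 and 3.37 in WT, above 93.8% to 97.2% of 9200 genes in each library. The median gene stood between 1.11 and 1.14. Ccnd2 and Ccnd3 were low in all 4 libraries, Ccnd2 at 0.475 and 0.580 in sgNAT10, against 0.423 and 0.491 in WT.

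The ratio of Ccnd3 was 0.477 and 0.526 in sgNAT10, against 0.283 and 0.285 in WT. Both sgNAT10 values lay above both WT values. The ratio of Cdkn2d was 1.71 and 1.32 in sgNAT10, against 0.271 and 0.645 in WT, again without overlap. For Ccnd1 it was 0.861 and 0.860 in sgNAT10, against 0.763 and 0.797 in WT, a small gap without overlap. Cdkn1a had 0.454 and 0.628 in sgNAT10, against 0.592 and 0.559 in WT, and overlapped, as did the remaining genes. The share of all genes whose ratio did not overlap was not counted. These gaps therefore have no background beside them and are given as values only.

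Translational efficiency was tested as the interaction of genotype and assay in 1 limma model of both assays. None of the 10 genes was called, against 0.152% of genes higher and 0.109% lower. An unadjusted p under 0.05 was found for 1091 of 9200 genes and for 2 of the 10. These were Cdkn2d (log2 difference 1.60, SE 0.488, adjusted p = 0.273) and Ccnd3 (0.68, SE 0.203, adjusted p = 0.262). For Cdkn1a the difference was -0.09 (SE 0.208, adjusted p = 0.918) and for Ccnd1 0.14 (SE 0.0815, adjusted p = 0.570). The model took 1 residual spread for both assays. Its SE for Ccnd3, Ccnd1 and Cdkn1a came out below those of their footprint changes alone (0.352, 0.133 and 0.217). For Cdkn2d it was above (0.428). The unadjusted p of Ccnd3 may therefore be too small. The alternative on the log2 ratio per library called 0 genes of all. Without WT footprint replicate 2, Cdkn2d was called (log2 difference 2.16, adjusted p = 0.0221), with 1 WT footprint library left.

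**Figure D3:**
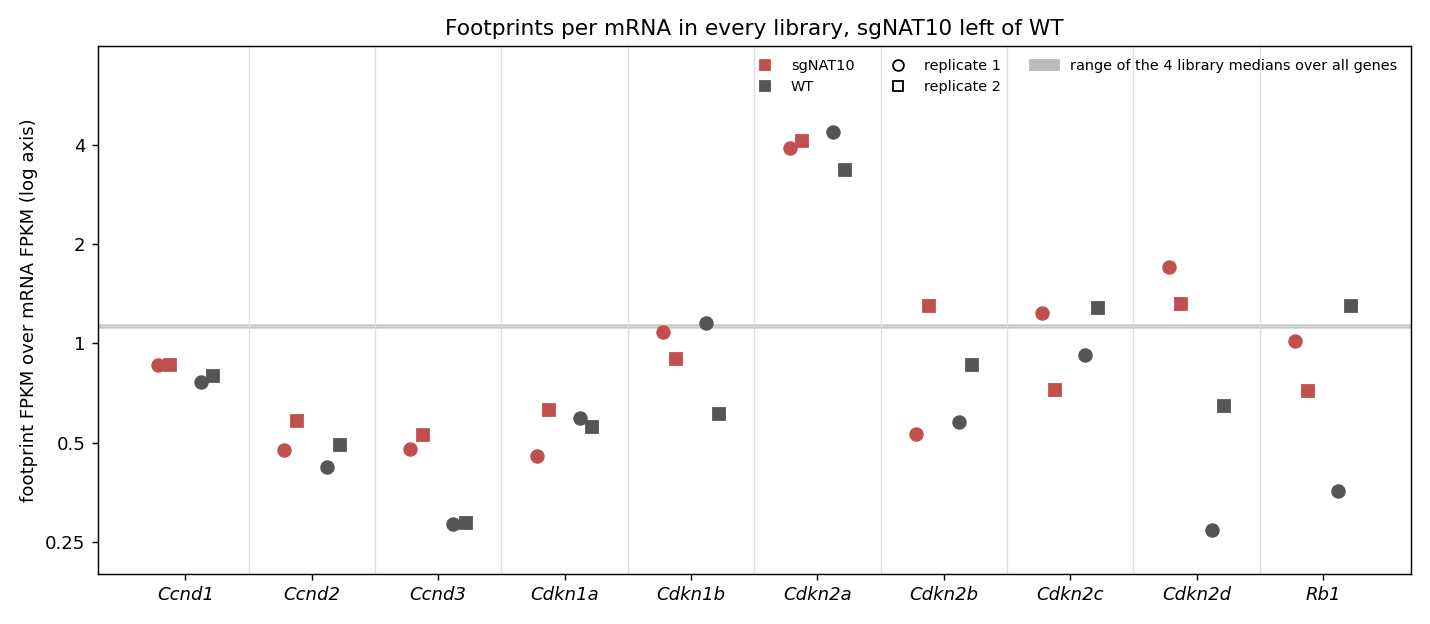
Footprint FPKM divided by mRNA FPKM (log axis) for each gene in every library, sgNAT10 left of WT. The grey band is the range of the library medians over 9200 genes, 1.11 to 1.14. Cdkn2a lies above the band in all 4 libraries, and Ccnd1, Ccnd2, Ccnd3 and Cdkn1a lie below it in all 4.

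With the Myc guide, Ccnd1, Ccnd2 and Rb1 mRNA fell, and Cdkn1a, Cdkn1b and the 4 INK4 genes were not called with all 3 sgMyc libraries. In edgeR's quasi-likelihood test on counts, adjusted over 16794 genes, 3 of the 10 were lower and 0 higher, against 8.86% and 7.11% of all genes. At an unadjusted p under 0.05, 2 more genes, Cdkn2a and Cdkn2b, were higher. Over all 16794 genes, 5207 had such a p in either direction. DESeq2 called Cdkn2b higher (log2 fold change 0.88, adjusted p = 0.00992), and limma called 0 higher. The genotypes did not overlap for 4 of the 10, against 37.9% of all genes. Without sgMyc replicate 3, 3 of the 10 were higher and 3 lower, against 26.6% and 26.9% of all genes.

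Ccnd1 had 124, 127 and 166 FPKM of mRNA in sgMyc, against 203, 203 and 202 FPKM in WT. All sgMyc libraries were below all WT libraries, the third least so (log2 fold change -0.54, SE 0.138, adjusted p = 0.0454 in edgeR; -0.66, adjusted p = 9.92e-08, without sgMyc replicate 3). Ccnd2 had 10.96, 11.6 and 14.97 FPKM in sgMyc, against 18.8, 18.5 and 19.3 FPKM in WT, in the same order (log2 fold change -0.59, SE 0.138, adjusted p = 0.0356; -0.71, adjusted p = 5.76e-07, without sgMyc replicate 3). Ccnd3 had 9.28, 9.77 and 10.3 FPKM in sgMyc, against 9.002, 9.04 and 9.54 FPKM in WT, which overlapped (log2 fold change 0.09, adjusted p = 0.493; 0.08, adjusted p = 0.142, without sgMyc replicate 3). Ccnd1 made up 85.5% to 86.8% of the summed D cyclin FPKM in sgMyc, against 87.5% to 88.0% in WT, while the sum stood at 144, 148 and 191 FPKM in sgMyc, against 230.5, 231 and 231 FPKM in WT.

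Rb1 had 2.81, 2.93 and 1.64 FPKM in sgMyc, against 4.06, 4.53 and 4.63 FPKM in WT. Here the third sgMyc library was the lowest of all (log2 fold change -0.85, SE 0.214, adjusted p = 0.0448 in edgeR; -0.59, adjusted p = 2.34e-04, without it). The calls of Ccnd1, Ccnd2 and Rb1 were each lost without any 1 of the 3 WT libraries or without sgMyc replicate 1 or 2, with log2 fold changes between -0.95 and -0.44 (adjusted p from 0.0878 to 0.165), and with no filter on low counts.

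Cdkn2b had 63.97, 65.2 and 29.96 FPKM in sgMyc, against 28.9, 30.6 and 29.5 FPKM in WT. Replicates 1 and 2 of sgMyc were above every WT library and replicate 3 was among them (log2 fold change 0.83, SE 0.275, adjusted p = 0.0928 in edgeR; 1.15, adjusted p = 4.81e-08, without sgMyc replicate 3). Cdkn2a, its neighbour, had 348, 351 and 228 FPKM in sgMyc, against 231, 237 and 234 FPKM in WT, with replicate 3 again at or below WT (log2 fold change 0.40, SE 0.159, adjusted p = 0.150; 0.61, adjusted p = 2.09e-07, without it). Cdkn1b showed the same split, with 15.1, 14.7 and 9.33 FPKM in sgMyc, against 11.7, 12.2 and 11.9 FPKM in WT (log2 fold change 0.12, adjusted p = 0.698; 0.34, adjusted p = 1.03e-04, without sgMyc replicate 3). The summed FPKM of the 4 INK4 genes was 450.2, 454 and 294 in sgMyc, against 296, 305 and 300.1 in WT. In the third sgMyc library Myc itself stood at 34.1 FPKM, above 21.1 and 20.9 FPKM in the other 2 sgMyc libraries.

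Cdkn1a had 78.8, 79.3 and 55.4 FPKM in sgMyc, against 80.6, 83.9 and 86.3 FPKM in WT. The sgMyc libraries were lower without overlap, chiefly the third, and the difference was not called (log2 fold change -0.24, adjusted p = 0.305; -0.05, adjusted p = 0.278, without sgMyc replicate 3). Cdkn2c ranged from 16.9 to 19.8 FPKM in sgMyc, against 17.9 to 18.5 FPKM in WT, and Cdkn2d from 18.5 to 19.4 FPKM in sgMyc, against 17.97 to 19.7 FPKM in WT. Neither was called, Cdkn2c at a log2 fold change of 0.02 (adjusted p = 0.875; 0.12, adjusted p = 0.0521, without sgMyc replicate 3) and Cdkn2d at 0.03 (adjusted p = 0.842; 0.05, adjusted p = 0.592, without it).

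The effects of the edits were then set against each other in 1 limma model, as the change with sgMyc minus the change with sgNAT10, each against its own WT. The comparisons share no library. Of the 10 genes, 2 had a positive and 3 a negative difference at adjusted p under 0.05, against 6.78% and 14.2% of 10265 genes. Ccnd1, which was higher in sgNAT10 and lower in sgMyc, differed by -0.95 on the log2 scale (SE 0.165, adjusted p = 0.00503). Cdkn1a, called lower in sgNAT10 and not called in sgMyc, differed by 1.01 (SE 0.202, adjusted p = 0.00950). Cdkn2c and Cdkn2d differed by -0.72 (SE 0.108, adjusted p = 0.00264) and by -0.79 (SE 0.0989, adjusted p = 0.00113). Without sgMyc replicate 3 these differences were -1.09 for Ccnd1 (adjusted p = 1.71e-08), 1.18 for Cdkn1a (adjusted p = 1.02e-07), -0.65 for Cdkn2c (adjusted p = 2.79e-05) and -0.80 for Cdkn2d (adjusted p = 3.34e-05).

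Ccnd3 differed by 0.32 (SE 0.0875, adjusted p = 0.0351), a call lost without any 1 library of either set apart from sgMyc replicates 1 and 3 (adjusted p from 0.0509 to 0.142). Ccnd2, lower with each edit, differed by 0.09 (SE 0.157, adjusted p = 0.722). The difference of Rb1 was -0.38 (SE 0.224, adjusted p = 0.278), of Cdkn2b 0.63 (adjusted p = 0.319), of Cdkn2a 0.51 (adjusted p = 0.176) and of Cdkn1b 0.12 (adjusted p = 0.777). Without sgMyc replicate 3 the counts were 5 positive and 3 negative, against 23.2% and 36.4% of genes. The added ones were Cdkn2b at 0.99 (adjusted p = 2.97e-07), Cdkn2a at 0.71 (adjusted p = 6.21e-07) and Cdkn1b at 0.32 (adjusted p = 9.36e-04). Ccnd3 was then at 0.28 (adjusted p = 0.00418), Ccnd2 at -0.03 (adjusted p = 0.619) and Rb1 at -0.20 (adjusted p = 0.0908).

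**Figure D4:**
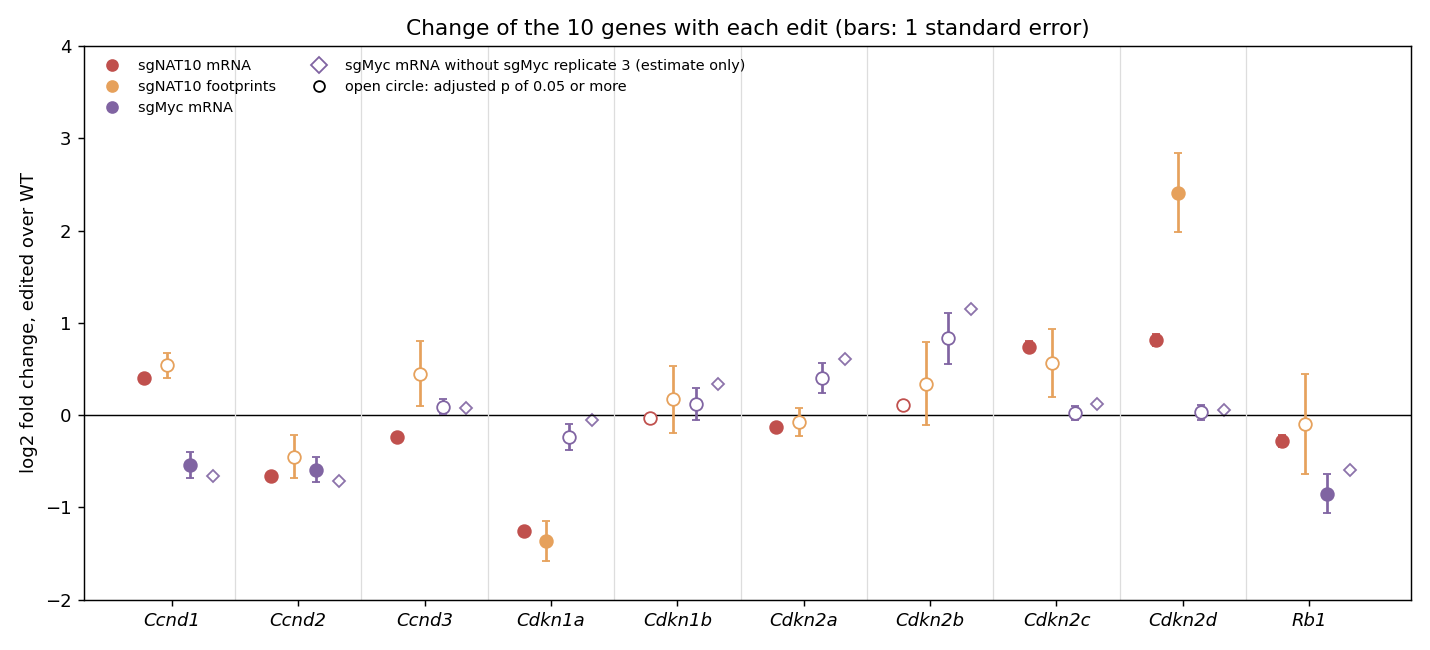
Log2 fold change, edited over WT, of each gene for sgNAT10 mRNA, sgNAT10 footprints and sgMyc mRNA, with bars of 1 standard error and filled circles at adjusted p under 0.05. Diamonds give the sgMyc estimate without sgMyc replicate 3. Ccnd1 is at 0.40 in sgNAT10 mRNA and at -0.54 in sgMyc mRNA, and Cdkn2b moves to 1.15 without the third sgMyc library.

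The acRIP table holds 1358 peaks in 1062 genes, 2 of them in the 10 genes. Of all genes tested in sgNAT10 mRNA, 8.08% had a peak. The fold enrichment of precipitate over input and the difference between genotypes are the authors' values per peak, from 1 library of each kind, and the header leaves the sign of that difference undefined, so no genotype is named for it. The Cdkn2a peak, on the minus strand of mm10 at chr4:89294360-89294565, is 206 bases long, is annotated as coding sequence, and had a fold enrichment of 2.19, above 69.3% of peaks. It lies 54 to 259 bases after the distal start, and 12168 to 12373 bases before the proximal start, so it falls in the part of the gene that the p19Arf transcript alone covers of the 2 annotated starts. Its log2 difference between genotypes was 0.643.

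The Ccnd1 peak, on the minus strand at chr7:144932480-144932690, is 211 bases long and is annotated as 3′ untranslated region. It had a fold enrichment of 1.53, above 31.0% of peaks and below the median of 1.77, and a log2 difference of 1.33. It ends 2549 bases before the 3′ end of the gene in RefSeq annotation. The authors' FDR for the difference was under 0.05 for both, as it was for 65.3% of all peaks. Neither peak's gene was called in the test of translational efficiency. Among genes of the lists below, E2f7 had the highest fold enrichment, 7.07 in a 3′ untranslated region, and Kdm6b the largest difference in size, -6.40 on the log2 scale; these were picked from the list genes' peaks after their values were seen.

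Genes that act with these 10 were described in lists. Beside the counts stand the shares called over all genes: for sgNAT10 mRNA 33.7% higher and 29.6% lower, for sgMyc mRNA 7.11% and 8.86%, and 6.78% and 14.2% for the change in sgMyc minus that in sgNAT10. Leaving out sgMyc replicate 3 made these shares 26.6% and 26.9% in sgMyc mRNA and 23.2% and 36.4% for the difference, so larger list counts in those fits stand beside a larger background. An unadjusted p under 0.05, in either direction, was found for 5207 of 16794 genes in sgMyc mRNA and 3483 of 10265 for the difference. For footprints it was found for 2009 of 9707 genes, and for translational efficiency for 1091 of 9200. Every list gene named with a call in sgMyc or in the difference was also called, in the same direction, without sgMyc replicate 3 (adjusted p at most 6.22e-04), and the value without that library is given after the semicolon.

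Of 13 tested CDKs, cyclins and their partners, 4 were higher and 3 lower in sgNAT10 mRNA, with a median log2 fold change of 0.0387, against 0.0139 over all genes. The largest changes were in Cdkn3, a CDK phosphatase (0.70, adjusted p = 1.69e-04 in limma), Ccne2, an E-type cyclin (-0.55, adjusted p = 4.01e-04), and Cdk6, a partner of D cyclins (-0.44, adjusted p = 3.50e-04). In sgMyc 0 of the 13 tested were higher and 2 lower, with 0 higher and 4 lower at an unadjusted p under 0.05, and 0 higher and 2 lower by DESeq2 and by limma (median -0.154, against -0.0285 over all genes). These were Cdk2, the kinase that Cdkn1a and Cdkn1b restrain (-1.83, adjusted p = 5.54e-04 in edgeR; -1.84), and Ccne2 (-0.67, adjusted p = 0.0253; -0.79). Without sgMyc replicate 3, 1 was higher and 9 lower, beside 26.6% and 26.9% of all genes. The change in sgMyc minus that in sgNAT10 was higher for 0 of 13, also at an unadjusted p under 0.05, and lower for 2, Cdk2 (-1.53, adjusted p = 1.14e-04 in limma; -1.56) and Cdkn3 (-1.08, adjusted p = 0.00270; -1.21), and without sgMyc replicate 3 for 0 and 9.

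The E2F factor list held 14 genes: E2F factors, their DP partners, the other pocket proteins, and Lin9 and Lin54, subunits of the DREAM complex. In sgNAT10 mRNA 9 were higher, Lin9 and Lin54 among them, and 4 lower (median 0.236), beside 33.7% and 29.6% of all genes. E2f1, the activator that Rb1 holds back, was higher by 0.91 (adjusted p = 6.00e-05 in limma), the repressor E2f8 by 0.66 (adjusted p = 1.75e-04) and E2f5, a partner of the p107 and p130 pocket proteins, by 0.57 (adjusted p = 0.00130). E2f1 footprints overlapped, with 4.17 and 9.37 FPKM in sgNAT10, against 7.14 and 6.82 FPKM in WT. They were not called (log2 fold change -0.12, adjusted p = 0.901 in limma). The E2f1 difference in translational efficiency was -1.03 (adjusted p = 0.416). Footprints of E2f8 and E2f5 were higher in sgNAT10 without overlap and not called. In sgMyc 0 of 14 were higher, also at an unadjusted p under 0.05, by DESeq2 and by limma, and 1 was lower, Rbl1, which encodes p107 (-0.35, adjusted p = 0.0186 in edgeR; -0.32). Without sgMyc replicate 3 these counts were 4 and 6. The change in sgMyc minus that in sgNAT10 was called lower for 4 of 13, among them E2f8 (-0.83, adjusted p = 0.0380 in limma; -1.03), E2f1 (-0.79, adjusted p = 4.95e-04; -0.82) and Rbl1 (-0.63, adjusted p = 7.96e-04; -0.63), and higher for 0, also at an unadjusted p under 0.05. In the fit without sgMyc replicate 3 it was lower for 9 and higher for 2 of 13.

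Of 25 E2F target genes of replication and repair, 11 were higher and 8 lower in sgNAT10 mRNA (median 0.0963), beside 33.7% and 29.6% of all genes. Cdt1, a licensing factor of replication origins, was lower (-0.80, adjusted p = 8.30e-05 in limma). In sgMyc 0 were higher and 4 lower (median -0.247), with 1 higher and 7 lower at an unadjusted p under 0.05, 1 higher and 3 lower by DESeq2, 0 and 4 by limma, and 1 higher and 22 lower without sgMyc replicate 3 (median -0.394), where 26.6% and 26.9% of all genes were called. The replication clamp Pcna (-0.40, adjusted p = 0.0444 in edgeR; -0.45) and Cdt1 (-0.36, adjusted p = 0.0335; -0.37) were among those that fell. The change in sgMyc minus that in sgNAT10 was lower for 5 and higher for 2 of the 25, with Cdc45, a part of the replicative helicase, at -0.58 (adjusted p = 0.0191 in limma; -0.69). With sgMyc replicate 3 left out it was lower for 19 and higher for 3, beside 36.4% and 23.2% of all genes.

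Genes of the p53 axis moved in both directions. Of 18 tested genes, 7 were higher and 6 lower in sgNAT10 mRNA (median 0.0144, against 0.0139 over all genes). The 3 largest changes were rises in Plk2, a kinase of the polo family (0.86, adjusted p = 4.92e-05 in limma), Phlda3, an inhibitor of AKT (0.73, adjusted p = 1.62e-04), and Btg2, an antiproliferative cofactor (0.63, adjusted p = 9.99e-04). In sgMyc 4 of 20 were higher and 1 lower (median 0.223), 13 and 3 without sgMyc replicate 3, and 8 and 1 by DESeq2. Fas, the death receptor, was higher by 2.06 (adjusted p = 0.0374 in edgeR; 2.50), Tnfrsf10b, another death receptor, by 0.63 (adjusted p = 0.00394; 0.70) and Phlda3 by 0.42 (adjusted p = 0.0111; 0.44). In sgNAT10 mRNA Fas and Gdf15, a stress-induced cytokine of the same list, were under the filter on low values and were not tested. Fas had 49 and 40 recovered reads in sgNAT10, against 13 and 8 in WT. Gdf15 went the other way, with 1 and 5 reads in sgNAT10, against 10 and 10 in WT. Between the edits the difference was positive for 1 and negative for 3 of 18, and without sgMyc replicate 3 positive for 9 and negative for 5. Plk2 was at -1.88 (adjusted p = 0.00489 in limma; -2.16), Sesn2, a stress-induced regulator of mTORC1, at -0.40 (adjusted p = 0.00802; -0.41) and Bax, a mediator of apoptosis, at 0.39 (adjusted p = 0.0159; 0.37).

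Factors known to turn over these proteins or to control their genes were mixed. Of 22 tested, 8 were higher and 8 lower in sgNAT10 mRNA (median 0.0691). Klf4, a transcription factor known to activate Cdkn1a, was higher by 2.75 (adjusted p = 9.74e-06 in limma), the Polycomb ubiquitin ligase Rnf2 by 1.28 (adjusted p = 3.65e-05) and Fbxo4, a factor in cyclin D1 turnover, by 0.90 (adjusted p = 1.09e-04). In sgMyc 2 of 23 were higher and 1 lower, and 9 and 6 without sgMyc replicate 3. Tbx2, a repressor of the Cdkn2a locus, had 4, 10 and 0 counts in sgMyc libraries, against 157, 127 and 142 counts in WT libraries (log2 fold change -5.03, adjusted p = 0.00950 in edgeR; -4.38). In sgNAT10 mRNA, where Tbx2 was under the filter on low values and was not tested, it had 1 and 1 recovered reads in sgNAT10, against 115 and 93 in WT. Its relative Tbx3 was higher in sgMyc (1.29, adjusted p = 0.00642; 1.51), as was Rnf2 (0.93, adjusted p = 0.00844; 1.10). The difference between the edits was positive for 4 and negative for 4 of 22, and without sgMyc replicate 3 positive for 9 and negative for 8. Klf4 was at -2.97 (adjusted p = 9.84e-06 in limma; -2.88), the histone demethylase Kdm6b at 0.84 (adjusted p = 0.0292; 1.02) and Tbx3 at 0.81 (adjusted p = 0.0470; 1.02).

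In footprints only Klf4 passed among the genes of these 5 lists (3.31, adjusted p = 0.0248 in limma). The genes with the lowest p were Cdk4 among the CDK partners (0.71, adjusted p = 0.0799), E2f5 among the E2F factors (1.63, adjusted p = 0.177) and Fas in the p53 axis (1.65, adjusted p = 0.112). In the 4 lists other than that of Klf4, 0 genes were called, with 12 higher and 4 lower at an unadjusted p under 0.05, and edgeR on recovered reads called 2 higher and 2 lower. In the translational efficiency test 0 genes of the 5 lists were called by the limma interaction or on the log2 ratio per library, with 1 higher and 7 lower at an unadjusted p under 0.05, and the lowest p in each belonged to Cdk4 (0.61, adjusted p = 0.139), Lin54, a subunit of the DREAM complex (-1.15, adjusted p = 0.179), Ezh2, a histone methyltransferase (-0.40, adjusted p = 0.410), Ccng1, a p53 target (-0.82, adjusted p = 0.171), and Fbxo4 (-1.09, adjusted p = 0.139).

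**Figure D5:**
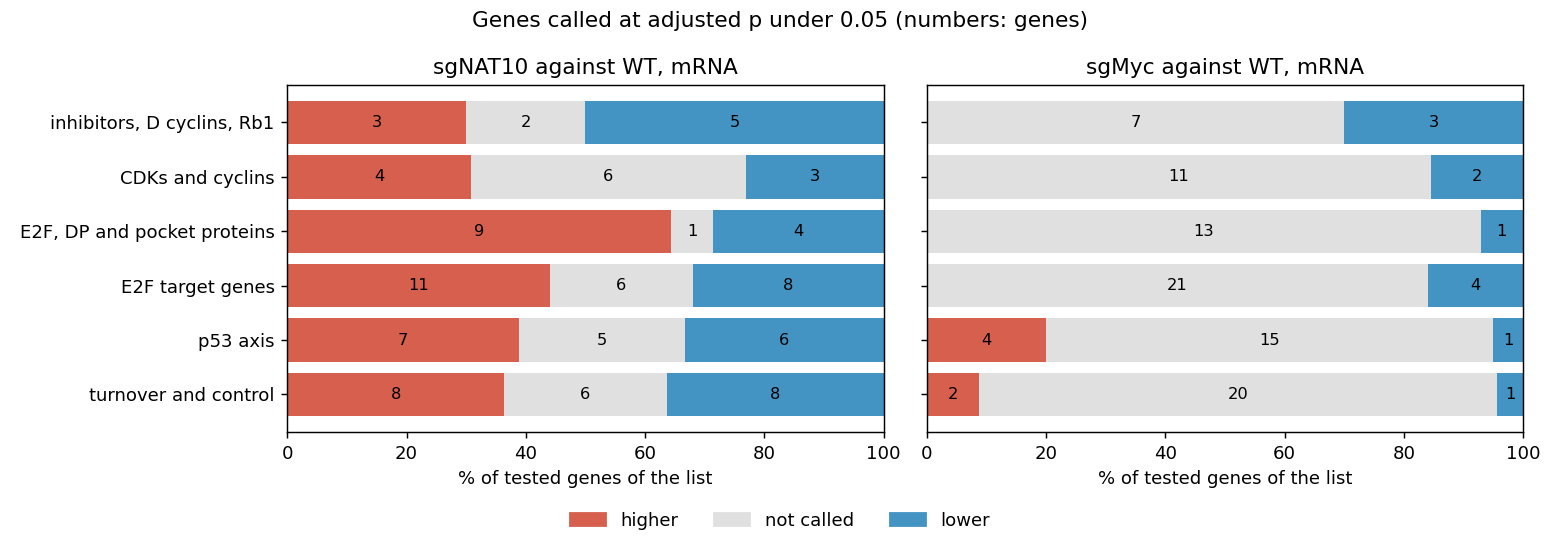
Share of the tested genes of each list (percent) that were called higher, lower or not called in sgNAT10 mRNA (left) and sgMyc mRNA (right), with gene numbers in the bars. Over all genes, 33.7% were higher and 29.6% lower in sgNAT10, and 7.11% and 8.86% in sgMyc. The E2F factor list, which also includes Lin9 and Lin54, holds 9 higher and 4 lower of 14 in sgNAT10.

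Genes most like Cdkn1a, Cdkn2a and Ccnd1 were sought by the root mean square difference of log2(FPKM + 1), each value taken relative to its WT mean, over 14 libraries and 9154 genes. Nearest to Cdkn1a were Mindy1 (0.111), Pnpla6 (0.128) and Bahcc1 (0.143). Nearest to Cdkn2a were Atp6v1b2 (0.0697), Zfp266 (0.0705) and Arid4a (0.0829). Nearest to Ccnd1 were Dlc1 (0.0865), Pdia4 (0.0989) and Otud1 (0.101). Likeness over these libraries chose the genes, so their changes follow from the choice and were not tested.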

How the data were processed

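Messenger RNA of 2 sets, ribosome footprints and acetylated RNA of TC1 cells were analysed from the deposited tables. The submitters' processing notes name FastQC, Trim Galore, Bowtie2, featureCounts and mm10, without versions. Which step made which file, the peak caller and the authors' test are not given in the sources used here. Footprint and sgNAT10 mRNA tables give FPKM per the file headers, beside a log2 fold change and p-values from the authors. For the sgMyc set, each gene has both a count and an FPKM per library, per the file headers. The deposited peak table lists the fold enrichment, the log2 difference between genotypes and a score that holds log10 of the p-value or FDR.

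FPKM were tested with limma 3.58.1 (R 4.3.3; eBayes with a trend) on log2(FPKM + 1) in genes averaging 1 FPKM or more. Counts were tested with edgeR 4.0.16 (filterByExpr, TMM, quasi-likelihood F test), its standard errors worked back from the F value. The Benjamini-Hochberg adjustment ran over all genes tested, at a threshold of 0.05, and fold changes are edited over WT. The interaction model took 1 residual spread for mRNA and footprints, which can understate the error of the noisier footprints. Whole reads were recovered from FPKM ratios between libraries for 99.97% of genes (mRNA) and 99.98% (footprints), and may be underestimated where a gene's reads have a common divisor. Counting noise of replicates was judged in genes with at least 40 reads in a pair. Peak starts were made 1-based. Fits were tested on simulated data.

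The 10 genes, the lists and the tests were chosen with earlier results of these data known. The named genes were all 10; of each list up to 3 with the largest change among called genes whose genotypes did not overlap, or the 1 with the lowest p where none passed; Nat10 and Myc; and the 3 genes most like Cdkn1a, Cdkn2a and Ccnd1, leaving out predicted genes. Some genes that this rule names are not reported here. For the interaction and the difference between the edits, overlap was not asked. Alternatives covered pseudocounts, filters, scalings, DESeq2 1.42.0, a replicate block and leaving out each library, where a lone library left in a group was assumed to vary like the rest.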

Additional observations from a re-analysis of the deposited data

Results flagged for a closer look

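For 5 of the 10 genes the change in mRNA with sgMyc differed from that with sgNAT10, each against its own WT, in a limma test of the difference itself. Over all genes, 6.78% had a positive and 14.2% a negative difference by the same test. On the log2 scale, sgMyc minus sgNAT10, the difference was 1.01 for Cdkn1a, -0.72 for Cdkn2c, -0.79 for Cdkn2d, -0.95 for Ccnd1 and 0.32 for Ccnd3. Without sgMyc replicate 3 these were 1.18, -0.65, -0.80, -1.09 and 0.28, where 23.2% of all genes had a positive and 36.4% a negative difference. The call of Ccnd3 was lost without any 1 library of either set apart from sgMyc replicates 1 and 3. Each set had its own WT libraries and its own depth, and the labels do not say whether the sets were sequenced together. Whatever else differed between the sets cannot be told apart from the edit. Groups held 2 or 3 libraries, too few to test a single library against its group.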

How the results depend on the processing

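In sgNAT10 mRNA the direction of each of the 10 genes was kept under each alternative run, and 112 of 119 alternative values stayed on the same side of the threshold, with 7 losing it. Leaving out 1 library at a time gave 3 to 5 genes lower of the 10. Without a trend in the variance, Cdkn2a was not called (adjusted p = 0.0564).

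In footprints, 755 genes were called by edgeR on recovered reads, 87 without a trend in the variance and 0 to 9 without 1 library, against 300. Of the 10 genes, the number called higher was 2 by edgeR on recovered reads and 0 with a pseudocount of 0.1, with no filter, without a trend, with the replicate block and without any 1 library. The number called lower was 0 without a trend and without any 1 library. Cdkn2a turned to 0.07 under quantile normalization. Leaving out 1 library gave log2 fold changes from -0.24 to 0.11 for Cdkn2a, from -0.21 to 0.54 for Cdkn1b, from -0.70 to 0.50 for Rb1 and from -0.25 to 0.92 for Cdkn2b.

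For translational efficiency, 24 genes were called, 1 with the replicate block, 0 on the log2 ratio per library and 3 to 640 without 1 library, with 0 to 1 of the 10 genes higher. Cdkn1a turned to 0.01 under quantile normalization. Without 1 library the differences ranged from -0.33 to 0.14 for Cdkn1a, -0.35 to 0.81 for Cdkn2b, -0.42 to 0.78 for Rb1, -0.18 to 0.58 for Cdkn1b, -0.11 to 0.24 for Cdkn2a and -0.50 to 0.14 for Cdkn2c.

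In sgMyc, 2682 genes were called, 1082 with the replicate block and 680 to 9368 without 1 library, the most without sgMyc replicate 3. Of the 10 genes, 1 was higher by DESeq2 and 0 to 3 without 1 library. The number lower was 0 with no filter, 0 with the replicate block and 0 to 3 without 1 library. With RLE size factors Rb1 was not called (adjusted p = 0.0547).

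For the difference between the edits, 2153 genes were called, 1256 with the replicate block and 1136 to 6115 without 1 library. Of the 10, the positive ones were 1 with the block and 1 to 5 without 1 library, and Ccnd2 ranged from -0.03 to 0.18. Quantile normalization gave 992 positive of 2221 calls, against 696 of 2153. Same-numbered libraries did not deviate together, with correlations across genes from -0.0181 to 0.0245. These values show no sign of pairing but cannot exclude it. Replicates of the sgNAT10 mRNA set differed by little more than counting noise, which leaves little to correlate. The cause of these shifts was not tested. Footprints of Cdkn2d rest on 11 to 152 reads a library.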
